A study of Mus musculus with 20 samples.

Results

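The genes of the proteasome subunits were described in MYC-driven mouse liver tumors and in control livers. The members were the genes whose symbol is Psma, Psmb, Psmc or Psmd followed by a number, without the 3 immunoproteasome genes (Psmb8, Psmb9 and Psmb10) and without pseudogenes. They were 36 of the 50559 genes in the count tables: 7 genes of the 20S alpha ring, 7 of the 20S beta ring, 2 tissue-restricted 20S genes, 6 ATPases of the 19S particle, 11 non-ATPase 19S subunits and 3 chaperones of 19S assembly that carry Psmd symbols.

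The 26S proteasome degrades proteins that carry ubiquitin chains. Its 20S core is a barrel of stacked rings, with alpha rings as gates at both ends and beta rings, which hold the peptidase sites, in between. The 19S particle binds the chain, removes it, unfolds the protein with its ring of ATPases and feeds it into the core. When proteasome activity falls short, the transcription factor Nrf1 (gene Nfe2l1) is known to raise the subunit genes together.

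RNA was sequenced from 4 groups of 5 libraries each. Hepatocytes of female C57BL/6J mice, young adults at injection, were transfected in vivo by hydrodynamic gene transfer with Sleeping Beauty transposase, and each tumor came from a mouse of its own. Aldafermin + MYC tumors carried a plasmid for Aldafermin (NGM282, an engineered analog of the human hormone FGF19) and one for MYC under the EF1a promoter. FGF19 + MYC tumors carried human FGF19 with the same MYC plasmid. In sgTrp53 + MYC tumors the partner of MYC was a CRISPR plasmid with a guide against Trp53, while the treatment label of these libraries reads None. Control livers are labelled as not treated, and the methods of the study describe control mice injected with a plasmid for a red fluorescent protein. Animals were fasted before the livers were taken. These are bulk samples, in which fewer cells of a type and less RNA per cell cannot be told apart.

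Levels are given as CPM, the counts of a gene scaled to a common library size, after scaling of the libraries by the trimmed mean of M values (TMM), and ± marks the SD of 5 libraries unless it is called a standard error (SE). A library held 18004977 to 66354724 reads assigned to genes. Trp53 was read first, since it was targeted. Its level was 18.7, 79.9, 35.4, 51 and 48.8 CPM in the sgTrp53 + MYC tumors, between 90.8 and 176 CPM in the Aldafermin + MYC and FGF19 + MYC tumors, and between 28.8 and 36.4 CPM in the livers. The sgTrp53 + MYC tumors therefore lay below every other tumor and overlapped the livers. The sgTrp53 + MYC libraries are in a count table of their own, and this table and this group cannot be told apart. Summed over 8 hepatocyte markers, livers had 182000 to 229000 CPM and tumors 3300 to 28600 CPM. Over 6 proliferation markers livers had 39.1 to 57 CPM and tumors 777 to 1300 CPM. The 2 tumor markers, Afp and Gpc3, summed to 1.36 to 7.03 CPM in livers, 2160 to 5080 CPM in Aldafermin + MYC and FGF19 + MYC tumors and 455 to 1660 CPM in sgTrp53 + MYC tumors. No marker of these 3 lists was at or under 3 counts throughout a group. Their part in the results was not tested.

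In 3 tumor libraries short transcripts were high relative to the other libraries of the group. Spearman's rho between transcript length and the deviation of 13794 genes from their group mean was -0.44 in Aldafermin + MYC replicate 5, -0.45 in FGF19 + MYC replicate 1 and -0.51 in sgTrp53 + MYC replicate 1. Control liver replicate 4 had -0.35, and the other 16 libraries lay between -0.25 and 0.41. Genes are not independent replicates, so these are descriptions of the libraries. The median deviation of 76 ribosomal protein genes, whose transcripts are short, was 0.75, 1.32 and 1.09 on the log2 scale in the 3 tumor libraries. The transcripts of the 35 tested proteasome genes had a median length of 1716 bases against 3166 bases for all tested genes, and their median deviation in the same 3 libraries was 0.45, 0.26 and 0.45. Without these 3 libraries, a choice made after the data were seen, 16 members rose and 3 fell against livers in the pooled tumors, with a median log2 fold change of 0.23 against 0.07 for all genes tested in that fit. In sgTrp53 + MYC tumors 10 rose and 4 fell, with a median of 0.07 against 0.09 for all genes. Of all genes in that fit 41.1% rose and 37.3% fell in the pooled tumors, and 40% and 34.8% in sgTrp53 + MYC tumors. The counts with all libraries follow.

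The first question was whether subunit genes differed from normal liver in the tumors that carried FGF19 or its analog. Of the 35 members with enough counts to be tested, 12 were higher in the mean of Aldafermin + MYC and FGF19 + MYC tumors than in control livers, 1 was lower and 22 did not pass an adjusted p of 0.05 (edgeR's quasi-likelihood test, Benjamini-Hochberg over 14333 genes). The genes that rose were Psma1, Psma2, Psma5, Psmb2, Psmc4, Psmc5, Psmd3, Psmd6, Psmd7, Psmd12, Psmd13 and Psmd14, and Psmd11 fell. Among all genes tested in this comparison 39.2% were higher and 34.5% were lower, and the members' counts are to be read against these shares. The median log2 fold change of the members was 0.34, against 0.10 for all tested genes. In 7 members every tumor library lay above every liver library, which held for 28.5% of all tested genes, and in 1 member every tumor library lay below, against 25.7%.

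sgTrp53 + MYC tumors were compared with the same livers. Here 10 members were higher (Psma2, Psma5, Psma7, Psmb2, Psmc6, Psmd3, Psmd6, Psmd7, Psmd12 and Psmd14), 3 were lower (Psmd4, Psmd8 and Psmd11) and 22 did not pass the threshold. In the background of all tested genes 36.9% were higher and 33% lower. The median log2 fold change was 0.22 for the members and 0.07 for all tested genes. Without sgTrp53 + MYC replicate 1 the medians were 0.04 and 0.06. Groups did not overlap in 5 members that lay above the livers and in 3 that lay below, against 28.8% and 27.4% of all tested genes. Both comparisons used the same 5 livers. Side by side, 8 members were higher in both and 1, Psmd11, was lower in both. The share of all tested genes called alike in both comparisons was not computed, so these counts have no background to be read against.

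These directions depend on how libraries of such different make-up are scaled. Without TMM, on total counts alone, the median of all tested genes moved up by 0.85 on the log2 scale for the pooled tumors against livers and by 0.88 for sgTrp53 + MYC tumors, and 34 of 35 members were then higher in each comparison with none lower. On that scale 61.1% of all tested genes were called higher and 18.3% lower in the pooled tumors, and 59.5% and 16.9% in sgTrp53 + MYC tumors. On total counts the median of the members was 1.18 against 0.94 for all tested genes in the pooled tumors, and 1.08 against 0.95 in sgTrp53 + MYC tumors. As a share of all gene counts the 36 members took 0.242% ± 0.015 in livers, 0.553% ± 0.0787 with Aldafermin, 0.528% ± 0.031 with FGF19 and 0.522% ± 0.0898 with sgTrp53. After TMM their summed level was 3780 ± 305, 4850 ± 1000, 4630 ± 651 and 4490 ± 1180 CPM in the same order.

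**Figure D1:**
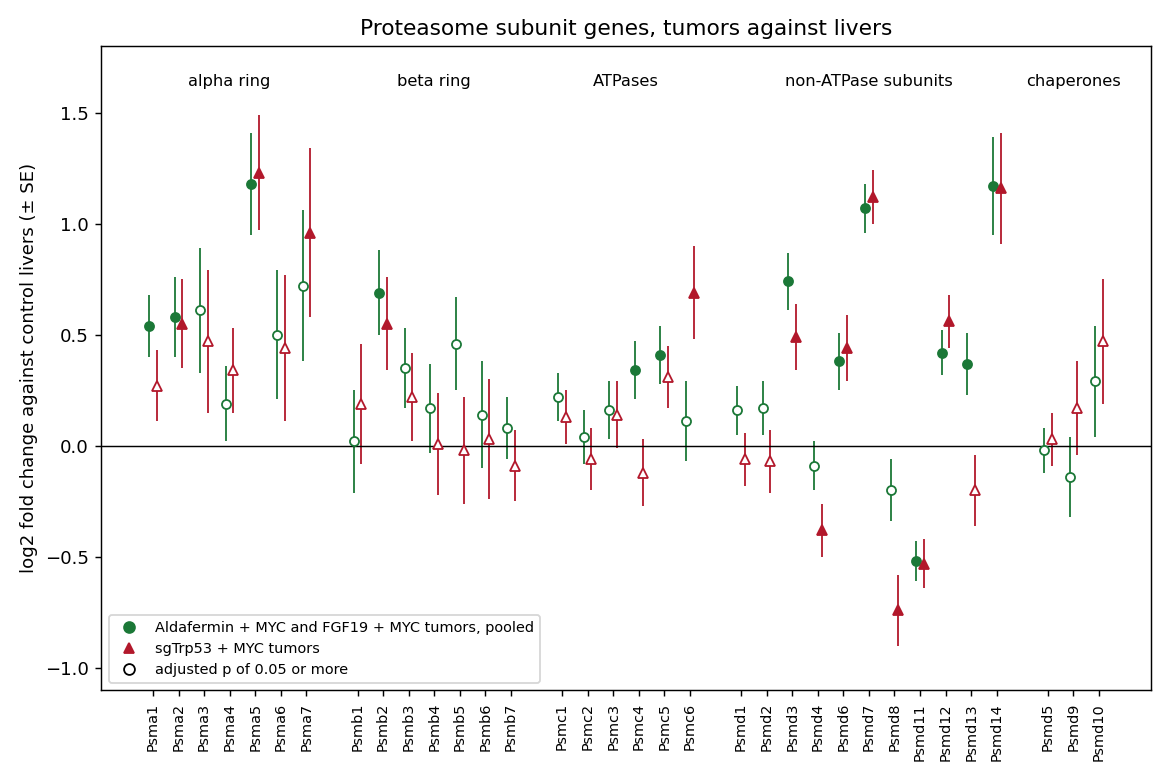
Log2 fold change (± SE) of 34 subunit genes against control livers, on TMM scale, for the pooled Aldafermin + MYC and FGF19 + MYC tumors (green circles) and sgTrp53 + MYC tumors (red triangles), grouped by place in the proteasome, with open symbols for an adjusted p of 0.05 or more. Psma5, Psmd7 and Psmd14 stand at 1.07 to 1.23 in both comparisons and Psmd11 at -0.52 and -0.53.

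Under all 49 alternative fits, counted over the 2 comparisons, 5 members were higher than livers in both: Psma5, Psmd3, Psmd7, Psmd12 and Psmd14. How many of all tested genes kept their call in this way was not counted, so the 5 have no background to be read against. Among them, Psma5 is an alpha ring subunit and the others belong to the lid of the 19S particle. Psmd14 is the deubiquitinase that cuts the ubiquitin chain off the substrate, Psmd7 is its partner in the lid, and Psmd3 and Psmd12 are scaffold subunits around them.

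Psma5 lies on chromosome 3 (GRCm39, chr3:108164086-108187298, plus strand). Its level was 61.2, 67.1, 59.1, 73.8 and 73.8 CPM in the livers. In Aldafermin + MYC tumors it was 170, 123, 123, 119 and 228 CPM, in FGF19 + MYC tumors 237, 123, 132, 136 and 122 CPM and in sgTrp53 + MYC tumors 283, 145, 108, 119 and 129 CPM. Every tumor thus lay above every liver, and the highest library of each tumor group was the one with high short transcripts. The log2 fold change against livers was 1.18 (SE 0.23, adjusted p = 0.000162, edgeR) in the pooled tumors and 1.23 (SE 0.26, adjusted p = 0.000343) in sgTrp53 + MYC tumors. In sgTrp53 + MYC tumors it was 0.9 without replicate 1, and the call was kept. The genome holds 2 near-identical copies of the transcript, and reads counted on the pseudogene row Psma5-ps, 3.89 CPM in livers and 8.73 CPM in the pooled tumors, moved with it.

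Psmd14 lies on chromosome 2 (GRCm39, chr2:61542026-61631607, plus strand) and has no near-identical copy. Livers had 43.3, 45.9, 43.9, 46.5 and 48.6 CPM. Aldafermin + MYC tumors had 119, 82.9, 87.1, 80.1 and 166 CPM, FGF19 + MYC tumors 142, 77.4, 97.1, 101 and 75.8 CPM, and sgTrp53 + MYC tumors 175, 96.7, 70.5, 83.5 and 82.8 CPM. Again no tumor reached down to the livers. The log2 fold change was 1.17 (SE 0.22, adjusted p = 9.43e-05, edgeR) in the pooled tumors and 1.16 (SE 0.25, adjusted p = 0.000346) in sgTrp53 + MYC tumors.

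Psmd7 lies on chromosome 8 (GRCm39, chr8:108307010-108315121, minus strand). It had the smallest adjusted p of all members and little spread between libraries. Livers had 82.1, 89.2, 81.1, 91.9 and 88.3 CPM, whereas Aldafermin + MYC tumors had 210, 173, 176, 156 and 208 CPM, FGF19 + MYC tumors 197, 173, 179, 180 and 166 CPM, and sgTrp53 + MYC tumors 231, 167, 163, 179 and 202 CPM. The log2 fold change was 1.07 (SE 0.11, adjusted p = 2.73e-08, edgeR) in the pooled tumors and 1.12 (SE 0.12, adjusted p = 8.4e-08) in sgTrp53 + MYC tumors.

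Psmd3 and Psmd12 changed less. Psmd3 was 157 ± 11.7 CPM in livers, 263 ± 46.1 and 262 ± 31.8 CPM in Aldafermin + MYC and FGF19 + MYC tumors and 220 ± 40.1 CPM in sgTrp53 + MYC tumors, with log2 fold changes of 0.74 (SE 0.13) and 0.49 (SE 0.15). Unlike Psma5 and Psmd14, it was lowest in the libraries with high short transcripts, at 194 CPM in Aldafermin + MYC replicate 5, 208 CPM in FGF19 + MYC replicate 1 and 161 CPM in sgTrp53 + MYC replicate 1. Psmd12 was 80.9 ± 3.05 CPM in livers, 110 ± 17.4, 105 ± 8.91 and 120 ± 16.2 CPM in Aldafermin + MYC, FGF19 + MYC and sgTrp53 + MYC tumors, with log2 fold changes of 0.42 (SE 0.10) and 0.56 (SE 0.12). For Psmd12 no tumor library overlapped the livers.

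**Figure D2:**
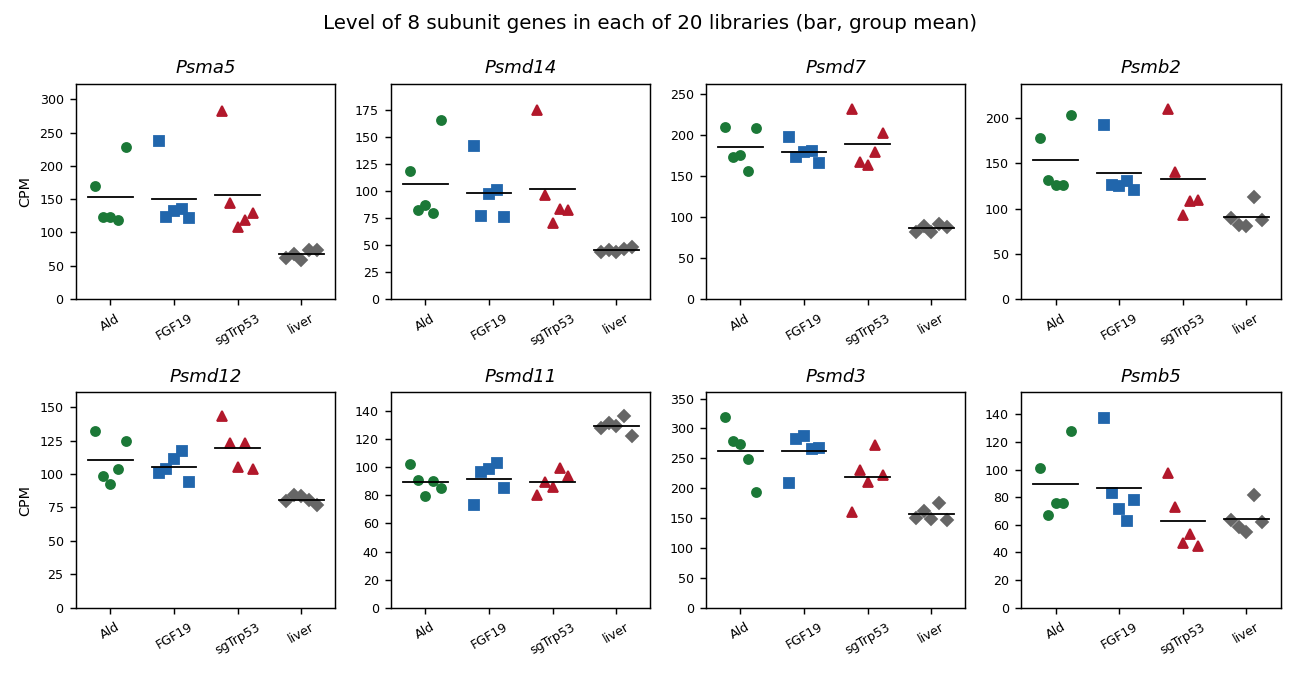
TMM-scaled level (CPM, linear axis from 0) of 8 subunit genes in Aldafermin + MYC (Ald), FGF19 + MYC (FGF19) and sgTrp53 + MYC (sgTrp53) tumors and control livers, 1 point per library and a bar at the group mean. For Psma5, Psmd14, Psmd7 and Psmd12 all 15 tumors lie above all 5 livers, for Psmd11 all 15 lie below, and for Psmb5 the groups overlap.

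The alpha ring forms the gated entry of the core. On TMM scale, without offsets for GC content and transcript length, all 7 of its genes had a positive log2 fold change in both liver comparisons, with a median of 0.58 in the pooled tumors and 0.47 in sgTrp53 + MYC tumors, and 3 passed the threshold in each. With the offsets the medians were 0.27 and 0.19, with Psma6 at -0.05 and -0.09 and Psma1 at -0.12 in sgTrp53 + MYC tumors, and without the 3 libraries with high short transcripts they were 0.39 and 0.20. Psma2 passed in both, at 0.58 (SE 0.18) and 0.55 (SE 0.20), but in sgTrp53 + MYC tumors its log2 fold change was 0.37 (adjusted p = 0.0841, edgeR) without replicate 1 and 0.30 with the offsets, and was called in neither. Psma1 passed in the pooled tumors at 0.54 (SE 0.14) and had 0.27 (SE 0.16) in sgTrp53 + MYC tumors. Psma7 showed how far a single library can carry a gene. It was 559 CPM in sgTrp53 + MYC replicate 1 and 208, 126, 146 and 158 CPM in the other 4, against 110, 116, 105, 136 and 150 CPM in livers. Its log2 fold change of 0.96 (SE 0.38, adjusted p = 0.0305, edgeR) became 0.37 (SE 0.29, adjusted p = 0.262) without that library, and the call was also lost without liver replicate 1, 2 or 3, with adjusted p between 0.0591 and 0.065. In the pooled tumors Psma7 had 0.72 (SE 0.34, adjusted p = 0.0604). Psma3, Psma4 and Psma6 had 0.61, 0.19 and 0.5 in the pooled tumors without passing. Of these, Psma3 passed without Aldafermin + MYC replicate 4, FGF19 + MYC replicate 2 or FGF19 + MYC replicate 5 (adjusted p = 0.0442, 0.0489 and 0.0473), and Psma7 without Aldafermin + MYC replicate 4 (adjusted p = 0.0481).

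The beta ring holds the peptidases. Psmb2 alone among its 7 genes passed the threshold against livers, with 0.69 (SE 0.19, adjusted p = 0.00263, edgeR) in the pooled tumors and 0.55 (SE 0.21, adjusted p = 0.0254) in sgTrp53 + MYC tumors. In sgTrp53 + MYC tumors the call was lost without tumor replicate 1, where the log2 fold change was 0.32 (adjusted p = 0.121), and without liver replicates 2, 3 or 5 (adjusted p = 0.0613, 0.0615 and 0.0517), as well as with the offsets. The median of the ring was 0.17 and 0.03 in the 2 comparisons. With offsets for GC content and transcript length the median in the pooled tumors was -0.20, and Psmb3, Psmb6 and Psmb7 were called lower, at -0.27, -0.34 and -0.34.

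The catalytic subunits of the ring showed no called difference from livers. Psmb5, the chymotrypsin-like peptidase and main target of bortezomib, was 64 ± 10.5 CPM in livers, 89.5 ± 25 and 86.5 ± 29 CPM in Aldafermin + MYC and FGF19 + MYC tumors and 63.1 ± 22.1 CPM in sgTrp53 + MYC tumors. Its log2 fold change was 0.46 (SE 0.21, adjusted p = 0.0567, edgeR) in the pooled tumors and -0.02 (SE 0.24, adjusted p = 0.945) in sgTrp53 + MYC tumors, and the first passed without Aldafermin + MYC replicate 2, FGF19 + MYC replicate 4 or liver replicate 4 (adjusted p = 0.0411, 0.0387 and 0.0388). Psmb6, the caspase-like peptidase, had 0.14 (SE 0.24) and 0.03 (SE 0.27). Psmb7, the trypsin-like peptidase, had 0.08 (SE 0.14) and -0.09 (SE 0.16). In each tumor group the highest level of all 3 genes came from the library with high short transcripts, for example 314 CPM of Psmb6 in FGF19 + MYC replicate 1 against 132 to 163 CPM in the other 4.

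The 2 rings did not move by the same amount within libraries. The mean log2 CPM of the 7 alpha genes minus that of the 7 beta genes does not depend on how libraries are scaled against each other. It was -0.35, -0.20, -0.18, -0.37 and -0.13 in the livers. Aldafermin + MYC tumors had 0.12, 0.06, -0.01, -0.03 and 0.27, FGF19 + MYC tumors 0.09, -0.05, 0.13, 0.26 and -0.07, and sgTrp53 + MYC tumors 0.38, 0.02, 0.13, 0.18 and 0.28. Every tumor lay above every liver on this measure, which was built with the members' values known and is given with no test. By contrast, 20S genes minus 19S genes was 0.12 ± 0.09 in livers and 0.27 ± 0.20, 0.22 ± 0.33 and 0.26 ± 0.34 in Aldafermin + MYC, FGF19 + MYC and sgTrp53 + MYC tumors, and here the groups overlapped. Its highest values, 0.61, 0.82 and 0.83, belonged to the 3 libraries with high short transcripts. On alpha minus beta, Aldafermin + MYC replicate 5 (0.27) and sgTrp53 + MYC replicate 1 (0.38) were also highest in their groups. FGF19 + MYC replicate 1 (0.09) was not.

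**Figure D3:**
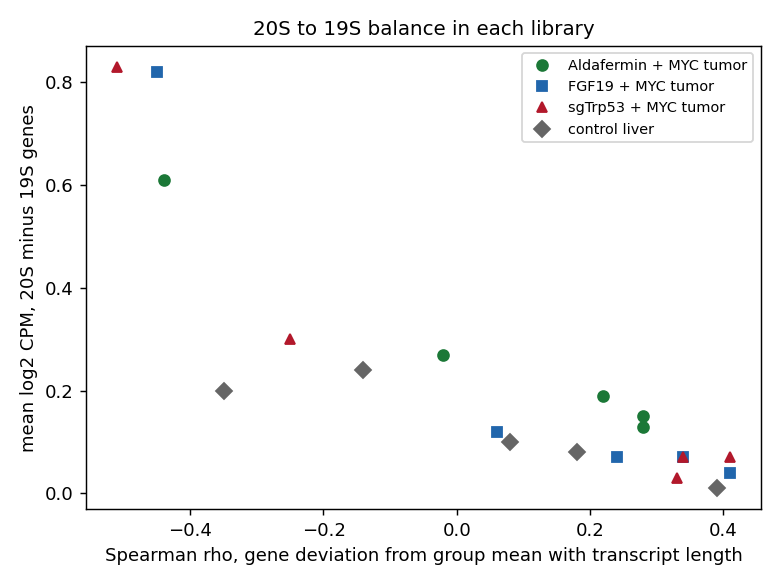
Mean log2 CPM of 14 genes of the 20S rings minus that of 17 genes of the 19S particle (vertical axis), 1 point per library. The horizontal axis is Spearman's rho between transcript length and the deviation of 13794 tested genes from their group mean. The 3 tumor libraries with rho of -0.44 or lower have a difference of 0.61 to 0.83, and the other 17 libraries lie between 0.01 and 0.30.

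The 6 ATPases form the motor of the 19S particle. In the pooled tumors Psmc4 and Psmc5 passed the threshold against livers with 0.34 (SE 0.13, adjusted p = 0.0271, edgeR) and 0.41 (SE 0.13, adjusted p = 0.00665). Without liver replicate 1, 2, 3 or 5 the call of Psmc4 was lost, with adjusted p of 0.0861, 0.0679, 0.0641 and 0.0539, and DESeq2 did not call it. The lowest ATPase was Psmc2, with 0.04 (SE 0.12), and Psmc1, with 0.22 (SE 0.11), passed without Aldafermin + MYC replicate 3 or 5 (adjusted p = 0.04 and 0.037) and under 3 other alternatives, among them no filter on low counts. With offsets for GC content and transcript length neither Psmc4 (0.14) nor Psmc5 (0.18, adjusted p = 0.113, edgeR) was called. In sgTrp53 + MYC tumors only Psmc6 passed. Psmc5 had 0.31 (SE 0.14, adjusted p = 0.0648) there and passed without liver replicate 4 or tumor replicates 3 or 5 (adjusted p = 0.0253, 0.0241 and 0.0479).

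The 11 non-ATPase subunits include scaffolds, ubiquitin receptors and the deubiquitinase, and they moved in both directions. In the pooled tumors 6 were higher and 1 was lower, from Psmd14 at 1.17 down to Psmd11 at -0.52. In sgTrp53 + MYC tumors 5 were higher and 3 were lower. Besides the 4 described above, Psmd6 was higher in both, at 0.38 (SE 0.13) and 0.44 (SE 0.15), and lost its call in the pooled tumors without liver replicate 1 (adjusted p = 0.0565, edgeR) and with the size factors of DESeq2 in edgeR. With the offsets its log2 fold change was 0.07 (adjusted p = 0.415) and 0.14 (adjusted p = 0.156), and neither was called. Psmd13 was higher in the pooled tumors, at 0.37 (SE 0.14), and lost its call without liver replicate 1, 2, 3 or 5 (adjusted p = 0.0577, 0.0575, 0.0699 and 0.0525) and under DESeq2.

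Psmd11, a scaffold subunit of the lid, was the member that went the other way in all tumors. It lies on chromosome 11 (GRCm39, chr11:80319400-80364074, plus strand). Livers had 128, 131, 129, 136 and 122 CPM. Aldafermin + MYC tumors had 102, 91.1, 79.3, 90 and 84.8 CPM, FGF19 + MYC tumors 72.8, 96.4, 98.9, 103 and 84.9 CPM, and sgTrp53 + MYC tumors 79.9, 89.5, 85.9, 99.1 and 93.6 CPM, so that no tumor reached the lowest liver. The log2 fold change was -0.52 (SE 0.09, adjusted p = 4.17e-05, edgeR) and -0.53 (SE 0.11, adjusted p = 0.000216) on TMM scale, but 0.33 and 0.36 on total counts, where the median gene stood at 0.94 and 0.95. Without the filter on low counts it was -0.24 in sgTrp53 + MYC tumors and was not called.

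The ubiquitin receptors of the particle are Psmd4 (Rpn10), Psmd2 (Rpn1) and Adrm1 (Rpn13), whose symbol is outside the rule, and Psmd1 (Rpn2) is the large scaffold on which Adrm1 sits. Psmd4 was 126 ± 14 CPM in livers, 121 ± 18 and 116 ± 7.16 CPM in Aldafermin + MYC and FGF19 + MYC tumors and 97 ± 13.1 CPM in sgTrp53 + MYC tumors. Against livers its log2 fold change was -0.09 (SE 0.11) in the pooled tumors and -0.38 (SE 0.12, adjusted p = 0.01, edgeR) in sgTrp53 + MYC tumors, where total counts gave 0.50. Without a filter on low counts it was -0.09, with 1 CPM required in every library -0.30 and with a model of these 2 groups alone -0.24, and none of these was called. Psmd2 had 0.17 (SE 0.12) and -0.07 (SE 0.14), and Psmd1 had 0.16 (SE 0.11) and -0.06 (SE 0.12). Psmd8, a lid subunit, fell by 0.74 on the log2 scale in sgTrp53 + MYC tumors (SE 0.16, adjusted p = 0.000501, edgeR), where total counts gave 0.13, and had -0.20 (SE 0.14) in the pooled tumors. Among the assembly chaperones that carry Psmd symbols none passed. The highest was Psmd10 (gankyrin), with 0.29 (SE 0.25) and 0.47 (SE 0.28), and the lowest in the pooled tumors was Psmd9, with -0.14 (SE 0.18). Psmd5 had -0.02 (SE 0.10).

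The tissue-restricted core genes were nearly silent. Psmb11, the subunit of the thymus, had 0 counts in all 20 libraries and was not tested. A count of 0 allows up to 3 counts per library, counting error only. Psma8, the subunit of the testis, was 0.932, 0.733, 1.02, 1.5 and 1.95 CPM in livers and between 0.169 and 2.77 CPM in 13 of 15 tumors. The other 2 tumors stood apart, with 18.9 CPM in Aldafermin + MYC replicate 1 and 20.3 CPM in sgTrp53 + MYC replicate 3.

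Aldafermin + MYC and FGF19 + MYC tumors were compared to ask whether the analog left the subunit genes at another level than the hormone. None of the 35 members passed, in a comparison in which 0% of all tested genes were called in either direction by edgeR's quasi-likelihood test, although 1048 genes and no member had an unadjusted p under 0.05. DESeq2 called 73 genes higher and 23 lower, and edgeR's likelihood ratio test 52 and 7, with no member among them. The median log2 fold change of the members was 0.07, against 0.02 for all genes. It was -0.07 without Aldafermin + MYC replicate 5 and 0.18 without FGF19 + MYC replicate 1. The smallest p values belonged to Psma8 (log2 fold change 1.85, SE 1.17, adjusted p = 0.83, edgeR's quasi-likelihood test), Psma1 (0.23, SE 0.16, adjusted p = 0.877) and Psmb7 (0.18, SE 0.16, adjusted p = 0.928). For Psma8 the difference rested on 1 library and was -0.39 without Aldafermin + MYC replicate 1. Apart from Psma8, the log2 fold changes of the members lay between -0.08 and 0.23. A p that misses the threshold does not show that the 2 tumor groups were alike.

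The 2 tumor groups with FGF19 activity were then compared with sgTrp53 + MYC tumors, in which MYC had another partner. Here the pooled tumors had higher levels of 3 members (Psmc4, Psmd8 and Psmd13) and 1 was lower (Psmc6), with 31 not past the threshold. Of all tested genes 11.6% were higher and 12.1% lower. No member had groups without overlap, against 3.28% of all tested genes above and 2.42% below. The median log2 fold change was 0.09 for the members and -0.02 for all genes. The members' median was -0.02 without Aldafermin + MYC replicate 5, -0.01 without FGF19 + MYC replicate 1 and 0.18 without sgTrp53 + MYC replicate 1, and 0, 0.04 and 0.03 without sgTrp53 + MYC replicates 3, 4 and 5. Over 13794 genes, which share these libraries, Spearman's rho of the fold change was 0.30 with GC content and -0.17 with transcript length. Reads that could not be given to a single gene were 12.9% ± 1.56 in sgTrp53 + MYC libraries and 4.48% to 4.81% on average in the other groups.

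Psmd13, a lid subunit, had the largest of these differences among the genes that were higher. It was 97.2, 78.9, 81.2, 81.1 and 126 CPM in Aldafermin + MYC tumors, 106, 82.9, 80.9, 84.3 and 81.2 CPM in FGF19 + MYC tumors, and 80, 72.4, 48.5, 50.9 and 51.2 CPM in sgTrp53 + MYC tumors. Only sgTrp53 + MYC replicate 1 reached the range of the other tumors. The log2 fold change was 0.57 (SE 0.14, adjusted p = 0.00715, edgeR). Exons of Psmd13 overlap those of Cox8b and Sirt3 over 1689 bases on the other strand and 0 bases on the same strand. Of the other members called against livers, Psmc5 (1269 bases) and Psmd4 (1079 bases) had the longest overlaps on the other strand. The strand setting of the counting is not given in the sources used here.

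Psmd8 was 122, 119, 131, 113 and 171 CPM in Aldafermin + MYC tumors, 149, 111, 124, 122 and 121 CPM in FGF19 + MYC tumors, and 116, 109, 64.6, 83.7 and 69.3 CPM in sgTrp53 + MYC tumors. Its log2 fold change was 0.53 (SE 0.14, adjusted p = 0.0116, edgeR). For both Psmd8 and Psmd13 the adjusted p was past the threshold without any single library, and was lost without the filter on low counts (0.0764 and 0.0528). Psmc4, an ATPase, was 134 ± 28.1 and 123 ± 3.35 CPM in Aldafermin + MYC and FGF19 + MYC tumors against 93.3 ± 21.5 CPM in sgTrp53 + MYC tumors, a log2 fold change of 0.46 (SE 0.13, adjusted p = 0.0175). It lost its call without Aldafermin + MYC replicate 5 or without sgTrp53 + MYC replicates 3 or 5 (adjusted p = 0.0525, 0.0599 and 0.0544, edgeR).

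Psmc6, another ATPase of the same ring, went the other way. It was 102, 77.4, 69.9, 79.7 and 150 CPM in Aldafermin + MYC tumors, 107, 82, 90.4, 97.9 and 75.4 CPM in FGF19 + MYC tumors, and 227, 122, 118, 116 and 114 CPM in sgTrp53 + MYC tumors. The log2 fold change was -0.59 (SE 0.18, adjusted p = 0.0242, edgeR), and -0.34 (SE 0.16, adjusted p = 0.116) without sgTrp53 + MYC replicate 1. With offsets for GC content and transcript length it was -0.16 and was not called. Against livers, Psmc6 had 0.69 (SE 0.21, adjusted p = 0.00715) in sgTrp53 + MYC tumors and 0.11 (SE 0.18) in the pooled tumors. Of the members that did not pass, Psmb5 and Psmd4 passed without sgTrp53 + MYC replicate 1, at 0.69 and 0.34 (adjusted p = 0.021 and 0.0342), and Psmd1 passed without FGF19 + MYC replicate 1, at 0.27 (adjusted p = 0.0449).

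**Figure D4:**
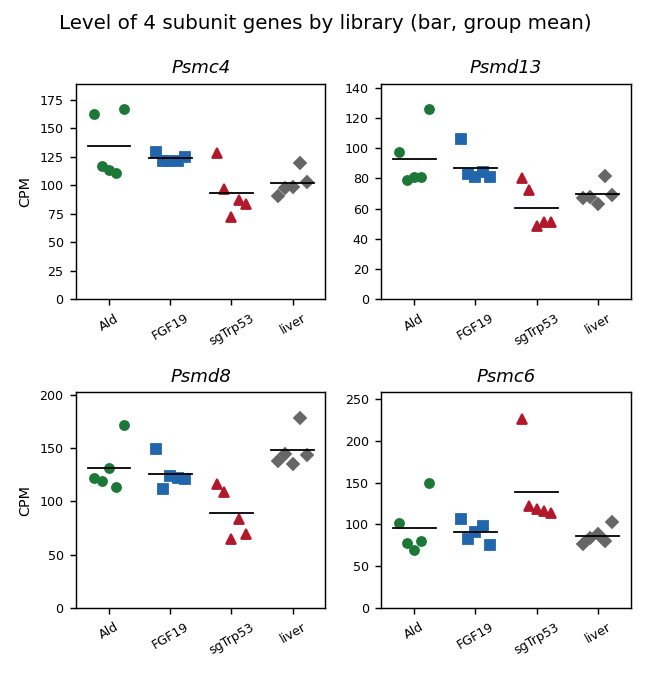
TMM-scaled level (CPM, linear axis from 0) of Psmc4, Psmd13, Psmd8 and Psmc6 in Aldafermin + MYC (Ald), FGF19 + MYC (FGF19) and sgTrp53 + MYC (sgTrp53) tumors and control livers, 1 point per library and a bar at the group mean. In the first 3 genes sgTrp53 + MYC tumors are lowest on average among the tumors, in Psmc6 they are highest, and sgTrp53 + MYC replicate 1 is the highest point of its group in all 4.

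Per kilobase of the GENCODE canonical transcript, Psma7 and Psmb6 had the highest mean levels of the members in FGF19 + MYC tumors, at 212 and 177 CPM per kilobase, and Psmb6 and Psmb4 in livers, at 163 and 154. Apart from the tissue-restricted genes the lowest was Psmd5, at 10 and 9.87 CPM per kilobase. This order rests on transcript models that may differ from those used in the counting. Among replicates the median SD of the members' log2 CPM was 0.16 in livers and 0.20 in FGF19 + MYC tumors. In Aldafermin + MYC and sgTrp53 + MYC tumors it was 0.33 and 0.38. All tested genes had a median SD of 0.25, 0.32, 0.40 and 0.45 in the same order. Under that median lay 32, 24, 27 and 21 of 35 members, and genes were not matched by level.

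Promoters of the members were read for short sequence motifs, whether or not the member moved. RefSeq promoter windows run from 250 bases before to 50 bases after the start, in a table of build GRCm38.p6. They were found for 29 of 36 members (31 windows). None was found for Psma8, Psmb1, Psmb2, Psmb7, Psmc3, Psmd3 or Psmd7. Of these, Psmb2, Psmd3 and Psmd7 were higher than livers in both comparisons. The windows were placed on GRCm39 by exact match, except that of Psmd6, which had 0 matches. Motifs were sought on both strands. TGACNNNGC, the core of the antioxidant response element that Nrf1 and Nrf2 bind, was in 16.1% of the member windows and 12.4% of all 32851 windows. The E-box CACGTG, which MYC binds, was in 6.45% against 7.15%, CCAAT in 38.7% against 37.4%, and TGACTCA, which can overlap the response element, in 3.23% against 5.20%. No motif was searched for beyond these. The windows of the 2 members with the largest rise among those tested against livers in the pooled tumors, of Psmd12, and of Psmd11, which fell, are shown with these motifs in capitals, on the strand of the gene.

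Psma5, chr3:108163992-108164291, plus strand: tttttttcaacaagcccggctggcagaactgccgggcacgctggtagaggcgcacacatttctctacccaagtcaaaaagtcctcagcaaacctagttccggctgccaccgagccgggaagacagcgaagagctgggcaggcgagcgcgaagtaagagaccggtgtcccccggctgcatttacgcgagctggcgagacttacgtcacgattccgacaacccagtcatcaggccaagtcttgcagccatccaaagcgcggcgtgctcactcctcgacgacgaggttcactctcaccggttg
Psmd14, chr2:61541788-61542087, plus strand: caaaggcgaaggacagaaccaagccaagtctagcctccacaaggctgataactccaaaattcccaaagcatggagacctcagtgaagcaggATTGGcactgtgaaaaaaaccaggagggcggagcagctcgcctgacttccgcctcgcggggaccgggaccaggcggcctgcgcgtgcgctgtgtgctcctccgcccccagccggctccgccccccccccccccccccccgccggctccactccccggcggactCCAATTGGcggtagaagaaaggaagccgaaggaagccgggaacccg
Psmd12, chr11:107370104-107370403, plus strand: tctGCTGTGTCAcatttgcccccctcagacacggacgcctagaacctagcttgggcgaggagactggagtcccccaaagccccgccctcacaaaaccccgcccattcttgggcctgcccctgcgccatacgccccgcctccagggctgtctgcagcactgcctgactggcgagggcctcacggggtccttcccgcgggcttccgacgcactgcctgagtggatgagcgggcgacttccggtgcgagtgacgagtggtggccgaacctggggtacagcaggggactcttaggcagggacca
Psmd11, chr11:80319191-80319490, plus strand: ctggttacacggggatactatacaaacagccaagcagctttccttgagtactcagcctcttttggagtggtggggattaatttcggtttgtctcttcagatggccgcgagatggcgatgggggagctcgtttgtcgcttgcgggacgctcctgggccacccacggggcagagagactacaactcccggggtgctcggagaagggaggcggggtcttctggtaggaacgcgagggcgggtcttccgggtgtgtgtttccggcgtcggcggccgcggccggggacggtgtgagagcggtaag

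Psma5 and Psmd11 hold none of the 4 motifs, Psmd14 holds CCAAT on both strands, at one place as an overlapping pair, and Psmd12 holds the response element core on the minus strand, far from the start. Of the catalytic subunits, Psmb5 and Psmb6 hold the response element core, and Psmb7 had no window to be read. The window of Psmb5 (chr14:54855403-54855702, minus strand) carries the core close to the start.

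Psmb5: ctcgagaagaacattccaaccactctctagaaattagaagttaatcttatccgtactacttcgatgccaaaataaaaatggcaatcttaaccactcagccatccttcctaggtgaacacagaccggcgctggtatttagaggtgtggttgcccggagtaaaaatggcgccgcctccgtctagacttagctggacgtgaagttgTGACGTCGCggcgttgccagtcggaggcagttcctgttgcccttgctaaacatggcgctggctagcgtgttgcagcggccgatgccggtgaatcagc

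Such a match is a description of these letters and no sign of binding. The window of Psmc6, which was higher in sgTrp53 + MYC tumors, also holds the core, and those of Psmc4 and Psmd8 were read without a match to it.

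The genes that work with the proteasome were read from 7 lists, and the highest log2 fold change against livers in the pooled tumors was 2.14 there and 1.18 among the subunits. Of 6 assembly factors, the 4 chaperones of the 20S core, Psmg1 to Psmg4, which help to build its alpha ring, rose in both comparisons with no overlap with livers, and Pomp and Akirin2 did not pass. Of all tested genes 28.5% lay above the livers without overlap in the pooled tumors and 28.8% in sgTrp53 + MYC tumors. Psmg2 was 11, 13.4, 12.5, 15.5 and 13.6 CPM in livers, 57.2 ± 8.48 and 54.7 ± 5.2 CPM in Aldafermin + MYC and FGF19 + MYC tumors and 47.1 ± 8.56 CPM in sgTrp53 + MYC tumors, a log2 fold change of 2.08 (SE 0.13) and 1.83 (SE 0.14). Psmg4 was highest, with 2.14 (SE 0.44), and Pomp lowest, with -0.16 (SE 0.18). Within libraries the mean log2 CPM of Psmg1 to Psmg4 minus that of the 14 core genes was -2.93 ± 0.10 in livers and -1.42 ± 0.13, -1.40 ± 0.04 and -1.59 ± 0.07 in Aldafermin + MYC, FGF19 + MYC and sgTrp53 + MYC tumors, and the tumors did not overlap the livers. This measure, too, has no test.

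The activators showed opposite changes. Psme3, the nuclear PA28 gamma cap, rose by a log2 fold change of 1.18 (SE 0.12) in the pooled tumors, whereas Psme1 and Psme2, the interferon-induced caps, and Psme4 were lower, Psme4 with -0.76 (SE 0.13). The immunoproteasome genes, outside the rule, split in the same way. Psmb8 was 46.5 ± 4.38 CPM in livers and 14 ± 7.02, 9.74 ± 4.44 and 11 ± 7.28 CPM in Aldafermin + MYC, FGF19 + MYC and sgTrp53 + MYC tumors, a log2 fold change of -1.99 (SE 0.33) and -2.08 (SE 0.41). Psmb9 had -1.58 (SE 0.33) and -1.61 (SE 0.40). Psmb10 rose from 63.5 ± 4.07 CPM to 162 ± 48.2, 197 ± 112 and 119 ± 54.6 CPM, with 1.49 (SE 0.28) and 0.91 (SE 0.30). These genes are also expressed by immune cells. Summed over 6 macrophage markers, livers had 320 to 494 CPM and Aldafermin + MYC tumors 244 to 724 CPM. FGF19 + MYC tumors had 201 to 313 CPM, below every liver, and sgTrp53 + MYC tumors 112 to 391 CPM. The part of immune cells in these results was not tested.

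**Figure D5:**
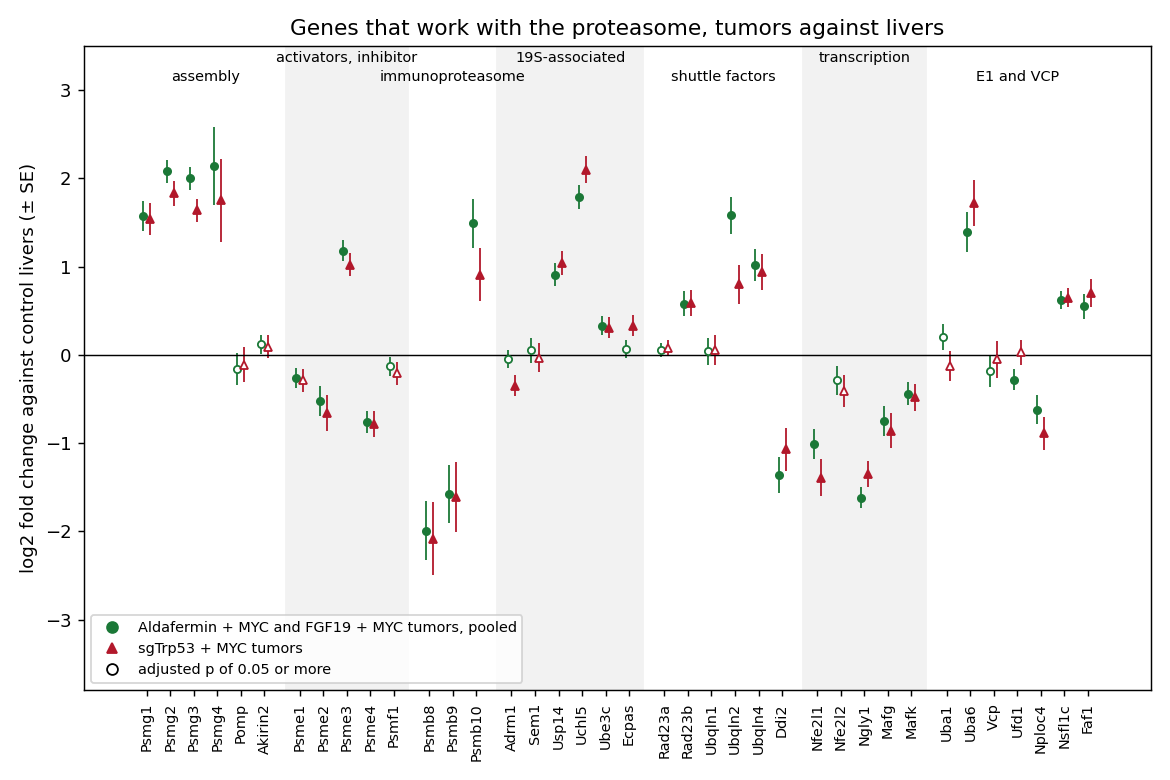
Log2 fold change (± SE) against control livers, on TMM scale, of the genes of 7 lists that work with the proteasome, for the pooled Aldafermin + MYC and FGF19 + MYC tumors (green circles) and sgTrp53 + MYC tumors (red triangles), with open symbols for an adjusted p of 0.05 or more. Psmg1 to Psmg4 stand at 1.54 to 2.14, Psmb8 and Psmb9 between -2.08 and -1.58, and Nfe2l1 at -1.01 and -1.39.

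The counts of these lists are to be read against the 39.2% of all tested genes that were higher and the 34.5% that were lower. Of the 19S-associated genes, 3 of 6 were higher in the pooled tumors, led by the deubiquitinase Uchl5 with 1.79 (SE 0.14), and Adrm1, its receptor on the particle, was lowest with -0.05 (SE 0.10). Among 6 shuttle factors, which carry ubiquitinated proteins to the proteasome, 3 were higher and 1 was lower, from Ubqln2 at 1.58 (SE 0.21) to the protease Ddi2 at -1.36 (SE 0.20). The list for transcription of proteasome genes had no member that rose. Nfe2l1 was 274, 281, 276, 182 and 224 CPM in livers, 105, 140, 142, 120 and 84.7 CPM in Aldafermin + MYC tumors, 86.3, 144, 144, 129 and 137 CPM in FGF19 + MYC tumors and 62.1, 109, 100, 127 and 74.5 CPM in sgTrp53 + MYC tumors. No tumor reached the lowest liver, and its log2 fold change was -1.01 (SE 0.17) and -1.39 (SE 0.21). Ngly1, which deglycosylates Nrf1 and was lowest of the list, had -1.62 (SE 0.12), and Nfe2l2 (Nrf2), highest of the list, had -0.29 (SE 0.16, adjusted p = 0.105, edgeR). Ddi2, the shuttle factor that fell, cleaves Nrf1. These are RNA levels, and Nrf1 is known to be controlled mainly as a protein.

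Among 7 genes of ubiquitin activation and the VCP segregase, Uba6 was highest at 1.39 (SE 0.23) and Nploc4 lowest at -0.62 (SE 0.16), with 3 higher and 2 lower. All of these calls are edgeR's at an adjusted p of 0.05.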

How the data were processed

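RNA of 20 bulk samples was sequenced in paired ends from a stranded mRNA kit. Per the labels and the methods of the study, the authors aligned reads with HISAT2 to the mouse build mm39 and counted them per RefSeq gene with htseq-count. The deposited values are raw counts per gene, in 1 table for 15 libraries and another for the 5 sgTrp53 + MYC libraries. The 5 summary lines of htseq-count were kept out of library sizes and took 33.7% to 56.2% of a library's total. The strand setting of the counting is not given in the sources used here.

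The 14333 of 50559 genes that reached 1 CPM in 5 or more libraries were tested with edgeR 4.0.16 in R 4.3.3. TMM scaling, 1 model of the 4 groups, the quasi-likelihood test and Benjamini-Hochberg adjustment over all tested genes were used, with a threshold of 0.05. Tumors with Aldafermin were compared with those with FGF19, their mean (the pooled tumors) with sgTrp53 + MYC tumors and with livers, and sgTrp53 + MYC tumors with livers. The median depth of a group was 34227256, 22749906, 60721954 and 33252026 gene counts in Aldafermin + MYC, FGF19 + MYC and sgTrp53 + MYC tumors and livers. Limits from counts of 0 cover counting error only. By the study's text the tumors came from separate mice and the replicates are biological.

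The alternatives included DESeq2 1.42.0, other size factors, other filters and leaving out each library. The scripts were tested on simulated data. Gene positions come from GENCODE on GRCm39, and near-identical copies of transcripts were sought with minimap2 2.31 at an identity of at least 90% over at least 50% of the transcript. Adding the counts of pseudogenes to their parent genes changed no call. Genes named in the text were all members past the threshold, the 3 members with the smallest p where none passed, and the highest and lowest gene of each other list. One list of related genes and one list of cell type markers are not reported here. Members named beyond this, and motifs, were chosen after values were seen. The members and lists were chosen with earlier results of these data known.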

Additional observations from a re-analysis of the deposited data

Results flagged for a closer look

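In 34 of 140 sets of 5 replicates (35 tested members in 4 groups), 1 library stood apart from the other 4 by Dixon's criterion, where chance would give about 1 in 20, or 7. The members of a library are not independent, and most of these cases came from 4 libraries.

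FGF19 + MYC replicate 1 accounted for 15. It was high for Psma2 (188 CPM), Psma3 (301 CPM), Psma5 (237 CPM), Psma6 (318 CPM), Psma7 (359 CPM), all 7 beta ring genes from Psmb1 to Psmb7 (289, 192, 163, 307, 137, 314 and 211 CPM in order), Psmd10 (31.6 CPM) and Psmd13 (106 CPM), and low for Psmd3 (208 CPM). sgTrp53 + MYC replicate 1 accounted for 9, all high: Psma3 to Psma7 (330, 251, 283, 355 and 559 CPM in order), Psmb1 (336 CPM), Psmc6 (227 CPM), Psmd6 (122 CPM) and Psmd14 (175 CPM). Aldafermin + MYC replicate 5 was high for Psmb4 (299 CPM) and Psmd10 (30.4 CPM). These are the 3 tumor libraries in which short transcripts were high, and the part of that shift in the levels of single members was not tested.

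Control liver replicate 4 was high for Psmb2 (113 CPM), Psmb4 (240 CPM), Psmc1 (148 CPM), Psmc3 (169 CPM), Psmc5 (111 CPM) and Psmd8 (178 CPM). Psma8 stood apart in a single tumor of each of 2 groups, with 18.9 CPM in Aldafermin + MYC replicate 1 and 20.3 CPM in sgTrp53 + MYC replicate 3.

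The difference from livers was not the same in pooled and sgTrp53 + MYC tumors, by edgeR's quasi-likelihood test of that difference, in 4 members. It was larger in the pooled tumors by 0.46 on the log2 scale for Psmc4, 0.57 for Psmd13 and 0.53 for Psmd8, and it was -0.59 for Psmc6. The livers cancel in this test, which is the comparison of the tumor groups given above.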

How the results depend on the processing

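On total counts as size factors 34 members were higher and 0 lower than livers in each comparison, with medians of 1.18 (pooled tumors) and 1.08 (sgTrp53 + MYC), and Psmd11 (0.33 and 0.36), Psmd4 (0.50) and Psmd8 (0.13) changed sign. Without a filter on low counts 19 members were higher than livers in the pooled tumors and 16 in sgTrp53 + MYC tumors. In the latter 1 was lower and the median was 0.50, against 0.33 for all genes. In the pooled against sgTrp53 + MYC tumors 0 members were higher. Of 29921 genes in that fit 7232 and 7337 were higher than livers, and 4839 were lower in sgTrp53 + MYC tumors. In the pooled against sgTrp53 + MYC tumors 1260 genes were higher. Offsets for GC content and transcript length, added after the data were seen, gave 5 members higher in the pooled than in sgTrp53 + MYC tumors. In the pooled tumors against livers they gave 6 lower and a median of 0.14. Of 13794 genes in that fit 1487 were higher in the first comparison. In the second 5198 were lower, with a median of 0.03 over all genes. Leaving out the 3 libraries with high short transcripts, also added later, gave 3 lower in the pooled tumors than in livers, against 37.3% of all genes in that fit. The causes were not tested. Leaving out 1 library gave 2 to 5 members higher and 0 to 1 lower in pooled against sgTrp53 + MYC tumors, 9 to 14 higher and 1 lower in pooled tumors against livers, and 7 to 11 higher and 3 lower in sgTrp53 + MYC tumors against livers. These fits tested 14190 to 14305 genes. Of them 1225 to 1817 were higher and 1272 to 2191 lower in the first of these comparisons. In the second 5329 to 5910 were higher and 4656 to 4981 lower, and in the third 4997 to 5279 and 4455 to 4742. Medians of the members ranged from -0.07 to 0.18 for Aldafermin + MYC against FGF19 + MYC, -0.02 to 0.18, 0.28 to 0.39 and 0.04 to 0.31 for the others in this order. Psma8 ranged from -0.39 to 2.16 between Aldafermin + MYC and FGF19 + MYC tumors and was lowest without Aldafermin + MYC replicate 1. Replicate numbers do not pair the samples (6 of 30 same-numbered pairs correlated over 0.1, from -0.33 to 0.33). With the replicate number as a block, 0 members were called between Aldafermin + MYC and FGF19 + MYC tumors, 3 higher and 1 lower in pooled against sgTrp53 + MYC tumors, 13 higher and 1 lower, and 10 higher and 3 lower, against livers, with medians of 0.07, 0.11, 0.26 and 0.17. Of 14333 genes in that fit 0, 1635, 5537 and 5123 were higher and 0, 1485, 5007 and 4858 lower, in the same order.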

Other observations

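Markers of other cell types overlapped between livers and tumors, though not in every tumor group. Endothelial markers summed to 158 to 263 CPM in livers and 46.3 to 173 CPM in tumors. In sgTrp53 + MYC tumors they summed to 46.3 to 129 CPM, below every liver. Stellate cell and fibroblast markers summed to 247 to 381 CPM in livers and 110 to 1550 CPM in tumors. Biliary markers summed to 44.3 to 124 CPM in livers and 1.81 to 87.6 CPM in Aldafermin + MYC and FGF19 + MYC tumors, and reached 779 CPM in a sgTrp53 + MYC tumor. Their part in the levels of the proteasome genes was not tested.

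Of the genes in the 7 wider lists, edgeR called 3 when pooled and sgTrp53 + MYC tumors were compared, all higher in the pooled tumors: Psmg3 (log2 fold change 0.36), Adrm1 (0.30) and Ubqln2 (0.77). Each was 1 of the 6 genes of its list. In this comparison 11.6% of all tested genes were higher and 12.1% lower, and the count is to be read against these shares.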
